A study of Mus musculus with 6 samples.

Results

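The miR-467a to miR-467e microRNAs, both arms, make up 10 of the 685 mature miRNAs listed in small RNA libraries from N2a cells, and all 10 were above the limit on low values. N2a is a mouse neuroblastoma line. The cells were first driven to a neuron-like state by 10 µM retinoic acid over 96 h, and were then given either 5 µM RSL3 for 24 h (n = 3 libraries) or the solvent DMSO (n = 3 libraries). RSL3 blocks the lipid peroxide-reducing enzyme GPX4 and induces ferroptosis, an iron-dependent form of cell death. The entries were taken by name, and the family was chosen by its measured values: an earlier analysis of these same libraries had called mmu-miR-467c-3p and mmu-miR-467e-3p higher with RSL3 and the miR-467e arm balance shifted, so every RSL3 against DMSO value below is a description and not independent evidence.

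A miRNA is cut from a hairpin precursor, and either side of the hairpin, the 5p or the 3p arm, can be loaded into an Argonaute protein and silence mRNAs that pair with its seed. Usually one arm, the guide, accumulates and the other, the passenger, is degraded. The miR-467 hairpins belong to a large rodent-specific miRNA cluster in an intron of Sfmbt2, a Polycomb-group gene that is imprinted and expressed from the paternal allele in early embryos and placenta, where the cluster is known to be needed for normal placental growth. The copies are repeat-derived and near-identical, so a short read can match several of them.

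In GRCm38 (GENCODE M21), 14 precursors of these 5 names lay in chromosome 2, 10473931 to 10507714 (plus strand), all in intron 11 of the Sfmbt2 transcript that GENCODE marks as principal (APPRIS) and with no overlap with any annotated Sfmbt2 exon. That intron held all 14 within 33784 nt, and neighbouring starts were 1909 to 4880 nt apart (median 2450 nt). The first was miR-467c (10473931 to 10474027). The 10 annotated miR-467a copies followed, from the first (10476346 to 10476418) to the last (10503273 to 10503355), with miR-467b among them (10481248 to 10481320). Then came miR-467e (10505721 to 10505807) and miR-467d (10507630 to 10507714). The Sfmbt2 gene, from 10370510 to 10595253, contained 119 annotated miRNA genes in all.

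A further 3 listed entries carry the name miR-467 but lie elsewhere. The minus-strand miR-467f precursor (chromosome 11, 69635400 to 69635519) is antisense to an intron of Fxr2, and the minus-strand miR-467g precursor (chromosome 5, 34732853 to 34732972) is antisense to an intron of Grk4. The plus-strand miR-467h precursor (chromosome 9, 115381819 to 115381939) overlapped no other annotated gene. The RefSeq mature sequences used (GRCm38.p6) lacked the entries of miR-467a to miR-467e and, of the 13 entries named miR-467, held these 3. They are shown, 5′ to 3′ with the seed (bases 2 to 8) in capitals, to show how far entries that carry the family name differ:
miR-467f: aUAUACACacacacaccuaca
miR-467g: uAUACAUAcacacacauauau
miR-467h: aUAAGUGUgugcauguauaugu
The 3 seeds differed from each other.

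The deposited values are reads scaled per library, which the authors named CPM. Whole reads could be recovered from them, and the 685 miRNAs together held 4306460 to 6058006 reads per DMSO library and 3406276 to 4989380 per RSL3 library, so RSL3 libraries were on the whole shallower. Each replicate pair differed by far more than counting noise (chi-square over its degrees of freedom, 73.0 to 257), so none was treated as a copy of another. Neuronal miRNAs were present: miR-9-5p, which acts in neurogenesis, had 3240 ± 723 CPM under DMSO and 4259 ± 962 CPM under RSL3 (SD, n = 3), and miR-124-3p, the classic neuron-enriched miRNA, 148 ± 15.2 and 179 ± 36.9 CPM. Means of miR-128-3p, another neuronal miRNA, were 2156 ± 261 and 2019 ± 321 CPM, and those of miR-7a-5p 225023 ± 38694 and 181728 ± 26834 CPM. The groups overlapped in all 4. Summed markers of blood (5 of 8 listed; 120 to 153 CPM under DMSO, 134 to 201 CPM under RSL3), epithelium (4 of 7; 398 to 462 and 362 to 450 CPM), endothelium, fibroblasts and smooth muscle (7 of 7; 36113 to 39348 and 36989 to 38142 CPM), striated muscle (4 of 5; 156 to 276 and 123 to 186 CPM) and pluripotent cells (1 of 10; 0.222 to 1.57 and 0.508 to 2.21 CPM) overlapped between the groups. The sums were not fitted. Of the single miRNAs in these lists limma called 0, where it called 0.601% of all tested higher and 0.15% lower. The entry with the highest level in the list for endothelium, fibroblasts and smooth muscle was miR-143-3p. Summed neuronal markers (9 of 9 listed) also overlapped, at 225228 to 309276 and 193797 to 249034 CPM, and most of that sum was miR-7a-5p. In bulk RNA, more cells that make a miRNA and more of it per cell cannot be told apart.

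By their read counts, the 10 entries fell into 8 sets. The recovered reads of miR-467a-5p and miR-467b-5p differed by at most 5 in any library, where each had 114831 to 167674. Those of miR-467a-3p and miR-467d-3p differed by at most 1, where each had 2366 to 4012. Each pair is therefore 1 measurement under 2 names and was counted once in sums. No other pair of the 10 agreed within 1% in every library. That comparison finds near-complete sharing only, and partial sharing was not tested. Which of the 11 miR-467a and miR-467b hairpins gave the shared 5p reads cannot be told from the values.

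The 5p arms carried nearly all of the family's signal. The shared reads of mmu-miR-467a-5p and mmu-miR-467b-5p, the highest of the family, stood at 25178, 25488 and 22822 CPM in DMSO libraries 1 to 3 and at 31958, 37157 and 33625 CPM in RSL3 libraries 1 to 3. All 3 RSL3 libraries lay above all 3 DMSO libraries, and the log2 difference on the CPM + 1 scale was 0.48 ± 0.13 (SE). After quantile normalization it was 0.26 for miR-467a-5p and 0.34 for the same reads listed as miR-467b-5p. Its levels made miR-467a-5p the entry with the 8th highest mean of 685 in DMSO and the 7th in RSL3 libraries.

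The 5p arm of the most upstream hairpin, mmu-miR-467c-5p, had 4363, 5658 and 8391 CPM under DMSO and 12790, 10292 and 8540 CPM under RSL3. The groups came within a narrow gap of each other, since DMSO library 3 nearly reached RSL3 library 3. The log2 difference was 0.81 ± 0.21. Its spread was wide, with an SD of 33.5% of the mean in DMSO libraries, where miR-467a-5p had 5.95%.

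The 5p arm mmu-miR-467e-5p went the other way, at 556, 611 and 680 CPM under DMSO and 498, 430 and 502 CPM under RSL3 (log2 difference -0.37 ± 0.12). It was the single entry of the 10 with every RSL3 library below every DMSO library. The remaining 5p arm, mmu-miR-467d-5p, had 133, 128 and 96.6 CPM under DMSO and 95.1, 142 and 169 CPM under RSL3, and its groups overlapped (0.16 ± 0.20).

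Among the 3p arms, the reads shared by mmu-miR-467a-3p and mmu-miR-467d-3p were the most abundant. As miR-467a-3p they stood at 629, 576 and 515 CPM under DMSO and 758, 742 and 803 CPM under RSL3 (log2 difference 0.42 ± 0.11), with no overlap between the groups.

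The passenger-level arm mmu-miR-467e-3p had 55.2, 66.8 and 98.0 CPM under DMSO and 207, 131 and 138 CPM under RSL3. RSL3 library 1 was the highest and DMSO library 3 the closest control. The log2 difference was 1.11 ± 0.21, or 2.16-fold. The 3p arm mmu-miR-467c-3p, at 33.4, 35.7 and 43.7 CPM under DMSO and 99.9, 74.7 and 70.0 CPM under RSL3, had a log2 difference of 1.09 ± 0.17, or 2.13-fold, again without overlap. The lowest entry, mmu-miR-467b-3p, rested on 17 to 55 reads per library. It had 8.62, 7.55 and 4.92 CPM under DMSO and 8.64, 5.33 and 8.62 CPM under RSL3, with overlapping groups (0.09 ± 0.26).

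**Figure D1:**
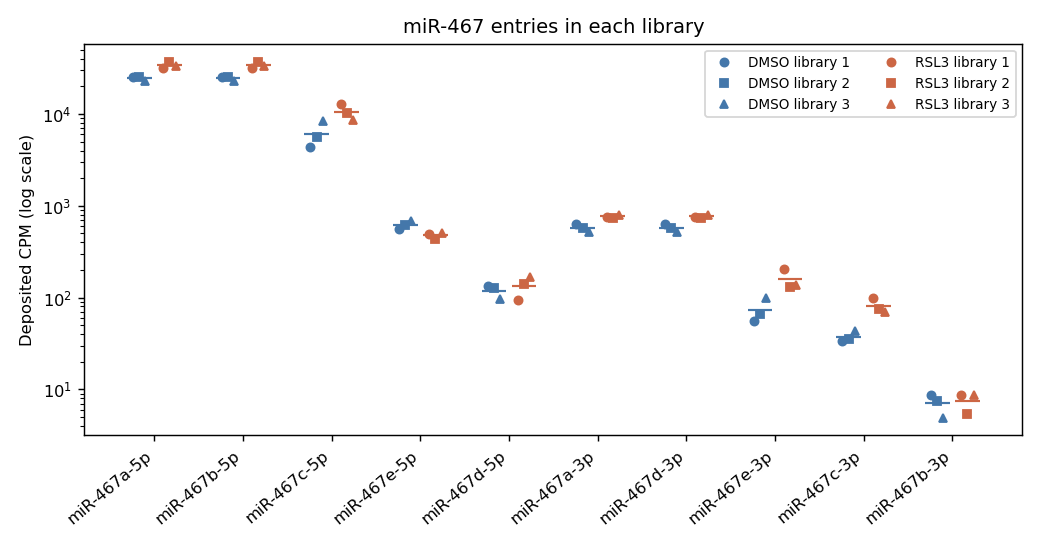
Deposited CPM (log axis) of the 10 miR-467 entries in each library; symbols mark libraries 1 to 3, colours the groups and short lines the group means. The 2 shared pairs show the same points under both names, and the RSL3 points lie above the DMSO points in 7 entries and below them in miR-467e-5p.

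In order of mean level, the DMSO libraries gave miR-467a-5p/miR-467b-5p, miR-467c-5p, miR-467e-5p, miR-467a-3p/miR-467d-3p, miR-467d-5p and then miR-467e-3p, with miR-467c-3p next and miR-467b-3p last. The steps from miR-467e-5p to miR-467a-3p/miR-467d-3p and from miR-467d-5p to miR-467e-3p were within the range of the libraries, while the other neighbours did not overlap. With RSL3, miR-467a-3p/miR-467d-3p stood above miR-467e-5p without overlap (742 to 803 against 430 to 502 CPM), and miR-467e-3p stood next to miR-467d-5p with overlap. The miR-467d-5p and miR-467c-3p ranges also overlapped there. These levels are CPM, not divided by length, which is nearly the same for all mature miRNAs.

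Counting each read set once, the 5p arms summed to 30230, 31884 and 31989 CPM under DMSO and 45341, 48020 and 42836 CPM under RSL3, a ratio of means of 1.45 (0.53 on the log2 scale). The 3p arms summed to 726, 686 and 662 CPM under DMSO and 1074, 953 and 1020 CPM under RSL3, a ratio of 1.47. Both sums lay higher in every RSL3 library than in any DMSO library. Together the arms took 3.28% ± 0.12 (SD, n = 3) of the listed signal in DMSO and 4.54% ± 0.14 in RSL3 libraries. The summed 5p arms would take place 7 among the entries outside the family in DMSO, between miR-21a-5p (32047 ± 2817 CPM) and miR-7b-5p (30817 ± 4717 CPM). In RSL3 libraries they would take place 3, between miR-7a-5p (181728 ± 26834 CPM) and miR-465c-5p (39682 ± 1739 CPM).

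Across all 666 miRNAs tested with limma (Benjamini-Hochberg adjusted p under 0.05), 0.601% were called higher and 0.15% lower with RSL3. Of the 10 miR-467 entries 2 were called higher, miR-467c-3p and miR-467e-3p, and 0 lower. These are the calls that singled out the family, so nothing is read from their share. At an unadjusted p under 0.05 limma gave 7 higher, where 8.86% of all tested were, and 1 lower (miR-467e-5p), where 8.41% were. The same 7 entries, which are 5 read sets, and the same 1 were those whose groups did not overlap, against 12.3% of all tested with RSL3 above and 12% with RSL3 below. With limma fitted without a trend, 0 were called higher. On recovered reads edgeR called 2 higher (0.601% of all) and 0 lower (0.3%), with 7 and 1 at an unadjusted p under 0.05 (8.86% and 8.11% of all). DESeq2 called 7 higher (2.55%) and 0 lower (2.85%), with 7 and 1 unadjusted (7.21% and 7.06%). Its adjusted shares are of all 666, though 233 of these had no adjusted p and could not be called. Of the 10 log2 differences 9 were positive, with a median of 0.45, where the median of all 666 was 0.0013 and 334 were positive. These 10 hold 2 read sets under 2 names each. With each read set counted once, 3 of 4 5p differences (median 0.32) and 4 of 4 3p differences (median 0.76) were positive. The 2 limma calls depended on single libraries: miR-467c-3p alone was called without DMSO library 1 or without RSL3 library 3, and neither was called without DMSO library 2.

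**Figure D2:**
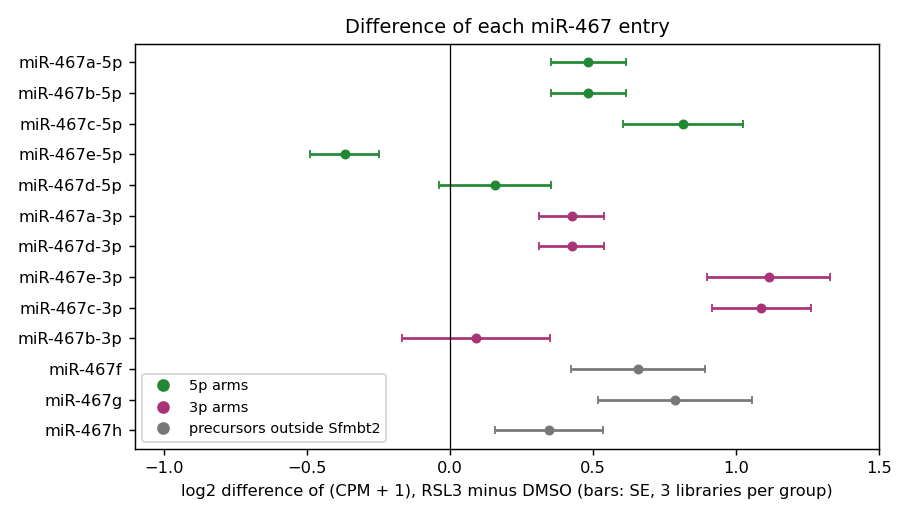
Log2 difference of CPM + 1, RSL3 minus DMSO, with its SE (3 libraries per group), for the 10 entries by arm and for miR-467f, g and h. The largest differences are those of miR-467e-3p (1.11) and miR-467c-3p (1.09), and miR-467e-5p is at -0.37.

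In the balance of their arms, miR-467c and miR-467e were taken first, since neither of their arms agreed within 1% with another member in every library. Whether their arms share part of their reads with other entries was not tested. In miR-467c the 3p arm held 0.635% ± 0.12 of the reads of both arms in DMSO and 0.769% ± 0.046 in RSL3 libraries (SD, n = 3), and the ranges overlapped. Both of its arms were higher with RSL3, and its log2 ratio of 5p to 3p was 7.27 ± 0.28 in DMSO and 6.99 ± 0.09 in RSL3 libraries, a change of -0.27 ± 0.22 (SE). The change was -0.42 without DMSO library 1 and -0.13 without DMSO library 3.

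In miR-467e the 3p arm held 9.02% (95% Wilson interval 8.16 to 9.96), 9.86% (8.85 to 11.0) and 12.6% (11.6 to 13.7) of the reads in DMSO libraries 1 to 3. In RSL3 libraries 1 to 3 it held 29.4% (27.7 to 31.1), 23.3% (21.4 to 25.4) and 21.6% (20.2 to 23.0). These intervals cover counting error only. Every RSL3 library was above every DMSO library, and the 5p arm stayed the more abundant one in all 6. Its log2 ratio of 5p to 3p was 3.09 ± 0.27 (SD) under DMSO and 1.61 ± 0.31 under RSL3, a change of -1.48 ± 0.22 (SE). In limma over 182 precursors 2.75% were called toward 3p and 0% toward 5p (13.7% and 8.24% at an unadjusted p under 0.05). Of the 5 miR-467 names miR-467e was called toward 3p, the shift already known when the family was chosen, and it stayed called whichever library was left out. At an unadjusted p under 0.05 limma still gave only miR-467e of the 5.

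The arm ratios of the other 3 names mix read sets. As listed, 3p reads were 2.29% ± 0.13 of miR-467a in DMSO and 2.20% ± 0.21 in RSL3 libraries, 0.0285% ± 0.0064 and 0.0223% ± 0.0070 of miR-467b, and 82.9% ± 1.21 and 85.2% ± 3.28 of miR-467d. The 3p arm was the more abundant one of miR-467d only as listed, since those 3p reads are also listed for the 10 miR-467a copies. Which hairpins gave these 3p reads cannot be told from the values, so the arm preference of miR-467d cannot either.

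**Figure D3:**
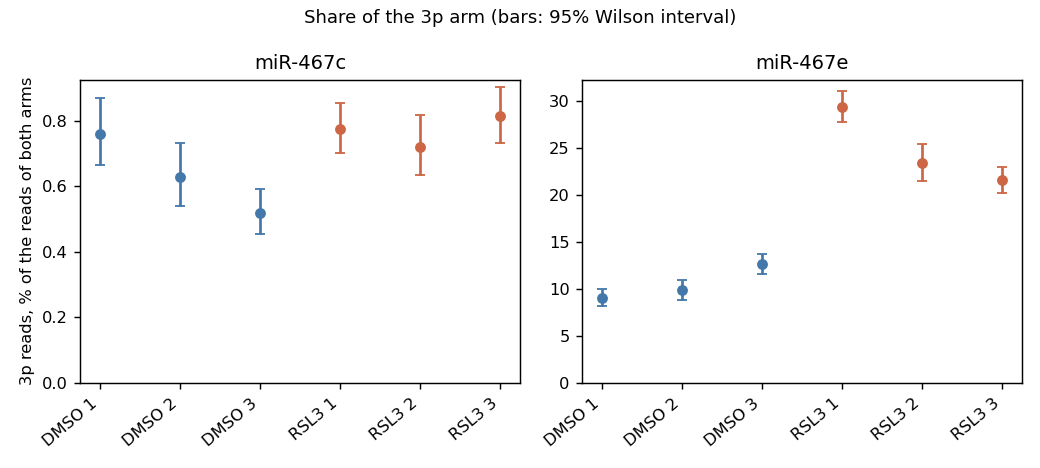
Reads of the 3p arm as a percentage of the reads of both arms of miR-467c (left) and miR-467e (right) in each library, with 95% Wilson intervals; the vertical scales differ. For miR-467e the 3 RSL3 libraries lie between 21.6% and 29.4%, above the 3 DMSO libraries at 9.02% to 12.6%.

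Inside each group, some entries varied together between libraries. In DMSO libraries miR-467c-5p, miR-467c-3p and miR-467e-3p were all highest in library 3 and lowest in library 1. In RSL3 libraries all 3 were highest in library 1. After the group mean was taken off, Pearson's r of their log2 values over the 6 libraries was 0.90 for miR-467c-5p with miR-467c-3p, 0.93 for miR-467c-5p with miR-467e-3p and 0.95 for miR-467c-3p with miR-467e-3p. The miR-467e-3p level was 1.65 to 2.24 times that of miR-467c-3p in every library of either group. By contrast miR-467a-5p/miR-467b-5p was lowest in DMSO library 3 and RSL3 library 1, the libraries with the highest miR-467c-5p, and r was -0.61 with miR-467c-5p and -0.85 with miR-467e-3p. The ratio of miR-467a-5p to miR-467c-5p ran from 5.77 in DMSO library 1 to 2.72 in DMSO library 3 and from 2.50 in RSL3 library 1 to 3.94 in RSL3 library 3, and its groups overlapped. Opposite patterns were not limited to miR-467a-5p/miR-467b-5p. On the same deviations r was -0.92 for miR-467a-3p/miR-467d-3p with miR-467c-5p and -0.99 for miR-467d-5p with miR-467c-3p. Between miR-467e-5p and miR-467e-3p it was 0.80. These r are descriptions over 6 points that share their libraries and scaling. Whether near-identical entries took reads from one another was not tested.

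The summed 5p arms varied less between DMSO libraries (SD 987 CPM) than either miR-467a-5p (1458 CPM) or miR-467c-5p (2056 CPM) did on its own. In RSL3 libraries the SD of the sum was 2592 CPM, beside 2655 CPM for miR-467a-5p and 2136 CPM for miR-467c-5p.

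**Figure D4:**
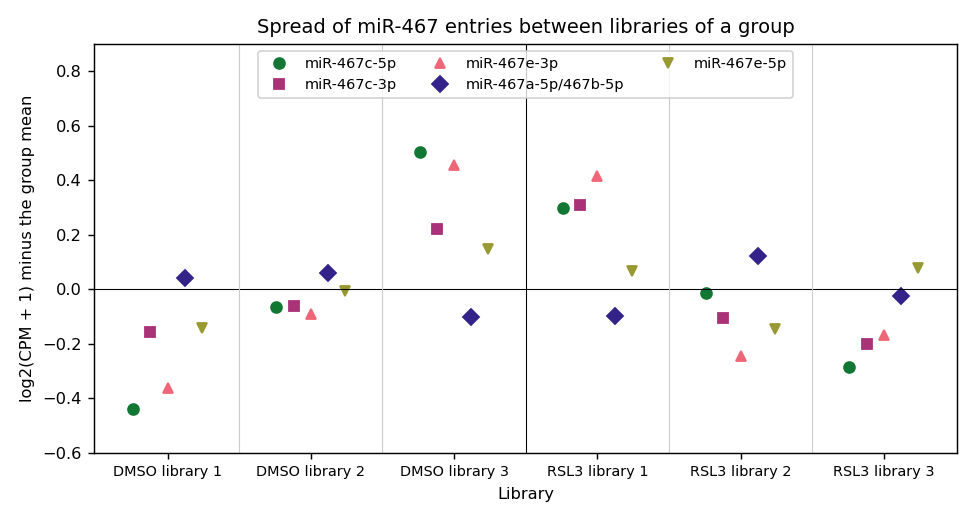
Log2(CPM + 1) minus the group mean in each library for 5 of the 8 read sets. The points of miR-467c-5p, miR-467c-3p and miR-467e-3p are highest in DMSO library 3 and in RSL3 library 1, where those of miR-467a-5p/miR-467b-5p are lowest.

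The other members of the Sfmbt2 cluster had mixed directions. By name, 57 further entries of the miR-669, miR-466 and miR-297 families had a precursor in Sfmbt2, and 55 were tested. Limma called 0 of them in either direction (0.601% and 0.15% of all tested). At an unadjusted p under 0.05 it gave 1 of the 55 higher and 10 lower, where 8.86% and 8.41% of all tested were. On recovered reads edgeR called 0 higher and 1 lower, miR-669b-5p (0.601% and 0.3% of all), with 3 and 10 unadjusted (8.86% and 8.11%). DESeq2 called 0 higher and 6 lower (2.55% and 2.85% of all), with 1 and 9 unadjusted (7.21% and 7.06%). It gave no adjusted p to 233 of all tested and could not call those, whatever their difference. The median log2 difference of the 55 was -0.08, beside 0.45 for the 10 miR-467 entries, and 23 were positive and 32 negative. The most abundant, miR-669a-5p and miR-669p-5p, gave the same values, 2747 ± 72.6 CPM under DMSO and 2076 ± 174 CPM under RSL3 (log2 difference -0.41 ± 0.11). The next were miR-669c-5p, at 2491 ± 215 and 1913 ± 124 CPM (-0.38 ± 0.11), and miR-669a-3p, at 1570 ± 129 and 1707 ± 120 CPM (0.12 ± 0.11). The miR-669a-3p reads were listed again as miR-669o-3p.

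By arm, all 12 miR-669 5p entries had negative log2 differences (median -0.39). In 9 of them every RSL3 library was below every DMSO library, where 12% of all tested were. Limma, edgeR and DESeq2 called 0, 1 and 5 of the 12 lower (0.15%, 0.3% and 2.85% of all tested) and 0 higher. At an unadjusted p under 0.05 they gave 9, 9 and 8 lower (8.41%, 8.11% and 7.06%). Of the 13 miR-669 3p entries 11 were positive (median 0.17). In the miR-466 family 2 of 11 5p entries (median -0.14) and 8 of 11 3p entries (median 0.18) were positive. Limma, edgeR and DESeq2 gave 0 of these in either direction, also at an unadjusted p under 0.05. Unadjusted, 8.86%, 8.86% and 7.21% of all tested were higher and 8.41%, 8.11% and 7.06% lower. Adjusted, 0.601%, 0.601% and 2.55% were higher and 0.15%, 0.3% and 2.85% lower. Among the miR-466 3p entries every RSL3 library was above every DMSO library in 5 and below in 2. Over all tested, 12.3% were above and 12% below. Several of the 5 had nearly the same values. Of the miR-466 5p entries 0 were above and 1 below, and of the 13 miR-669 3p entries 4 were above and 0 below. Among those 4, miR-669h-3p, miR-669d-3p and miR-669d-2-3p were low, with group means of 1.21 to 2.88 CPM. The values of miR-669d-3p and miR-669d-2-3p were nearly the same. All 3 miR-297 5p entries (median -0.23) and all 3 miR-297 3p entries (median -0.12) were negative. Of these, only miR-297a-5p had every RSL3 library below every DMSO library. Among the miR-467 5p arms, miR-467e-5p was negative like the miR-669 5p arms. Positive without overlap of the groups were miR-467c-5p and miR-467a-5p/miR-467b-5p, the latter 1 read set under 2 names. For miR-467d-5p the difference was 0.16 ± 0.20 with overlapping groups, and -0.024 without RSL3 library 3. Whether the families differ in response was not tested, and entries within a family share reads, so these counts are not of independent measurements.

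**Figure D5:**
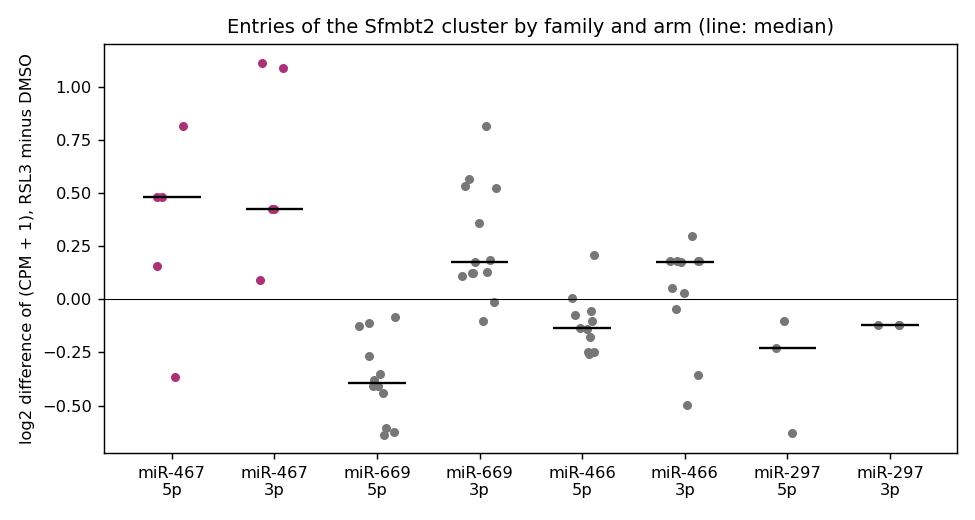
Log2 difference of CPM + 1, RSL3 minus DMSO, of each tested entry of the Sfmbt2 cluster by family and arm, with the median as a line; entries that share reads each have a point. The miR-467 medians are positive in both arms, while all 12 miR-669 5p points are below 0.

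The 3 entries named miR-467 outside Sfmbt2 were low. Levels of miR-467f were 3.54 ± 0.38 CPM under DMSO and 6.21 ± 1.24 CPM under RSL3, and those of miR-467g 2.14 ± 0.094 and 4.59 ± 1.68 CPM, on 10 to 36 reads per library. In both, every RSL3 library was above every DMSO library, as in 12.3% of all tested, with log2 differences of 0.66 ± 0.23 and 0.79 ± 0.27, which this scale understates at such levels. For miR-467h, at 18.6 ± 2.35 and 24.0 ± 4.33 CPM, the groups overlapped (0.35 ± 0.19). In limma, edgeR and DESeq2 0 of the 3 were called, and miR-467f and miR-467g were higher at an unadjusted p under 0.05 in each, as were 8.86%, 8.86% and 7.21% of all tested. DESeq2 gave no adjusted p to 233 miRNAs. At the levels of miR-467f and miR-467g, its lack of a call is therefore not read as a result.

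Among 408 tested miRNAs outside the family with a mean of at least 10 CPM, the pattern most like the summed 5p arms over the 6 libraries was that of miR-215-5p, a p53-responsive miRNA (Pearson's r = 0.976 of log2 values; 10.5 ± 0.97 CPM under DMSO, 20.5 ± 2.04 CPM in RSL3). It was followed by miR-339-3p (r = 0.972; 9.29 ± 0.37 and 14.4 ± 0.13 CPM) and miR-582-3p (r = 0.970; 97.4 ± 6.42 and 129 ± 2.75 CPM). For the summed 3p arms the closest were miR-339-3p (r = 0.974), miR-5100 (r = 0.957; 9.50 ± 3.54 and 82.6 ± 23.5 CPM) and miR-671-5p (r = 0.936; 34.6 ± 5.39 and 52.2 ± 2.56 CPM). As the libraries form 2 groups, such an r is set mainly by the gap between them, and in all 5 of these miRNAs every RSL3 library was above every DMSO library. The limit of 10 CPM was set on the mean of all 6 libraries, and miR-339-3p and miR-5100, with DMSO means under it, passed through their RSL3 levels.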

How the data were processed

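Per the labels, small RNA libraries were made from total RNA by joining adapters to both RNA ends, amplification and size selection, and were sequenced on an Illumina instrument. The submitters' processing notes name cutadapt, Bowtie, edgeR and GRCm38. How these were set, and how a read with several matches was counted, is not stated there. The authors deposited a normalised signal per mature miRNA, named CPM in their files, for 685 miRNAs in 6 libraries. All values (100%, within 0.01) were whole multiples of 1 step per library, so reads were recovered by division. The divisors equalled the summed reads times edgeR's TMM factor (0.936 to 1.05), so the signal is TMM-scaled, where plain CPM had been assumed in the design. One read was worth 0.157 to 0.314 CPM, and a count of 0 allows 0.470 to 0.941 CPM (3 reads, counting error only).

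Differences were fitted with limma 3.58.1 in R 4.3.3 (trend, two-sided) on log2(CPM + 1) over the 666 miRNAs with at least 1 CPM in at least 3 libraries (19 left out), which understates changes of low miRNAs, and arm ratios over 182 precursors. The script was tested on simulated data. As alternatives, edgeR 4.0.16 and DESeq2 1.42.0 were run on recovered reads, and the pseudocount, filter, scaling, variance model and replicate block were changed and each library left out. DESeq2 gave no adjusted p to 233 miRNAs. The members, lists and rules were chosen with earlier results of these data known. All 10 entries are named, with the 4 most abundant other Sfmbt2 entries and the 3 miRNAs most like each summed arm. Sfmbt2 entries named for their calls were chosen after their values were seen. A count of entries outside the family with the same seed as a member was planned and is not analysed here. The labels do not say whether replicates were separate cultures, and the tests may thus reflect technical spread alone.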

Additional observations from a re-analysis of the deposited data

How the results depend on the processing

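The number of miR-467 entries called higher, 2 as reported, was 0 with limma without a trend, 0 with the replicate number as a block, 7 in DESeq2, and between 0 and 3 on leaving out single libraries. The number called lower was 0 under each of the 18 alternatives, and the number of precursors with a shifted arm ratio was 1 under each of its 12. Same-numbered DMSO and RSL3 libraries did not deviate together (r of -0.35, -0.33 and -0.19 for numbers 1 to 3), and no library correlated best with its own number, so the numbers were not taken to pair the samples. The log2 difference of miR-467b-3p ran from -0.11 to 0.29 and that of miR-467d-5p from -0.024 to 0.39 when a library was left out, so neither has a stable direction. Under quantile normalization it was 0.26 for miR-467a-5p and 0.34 for miR-467b-5p. The log2 ratio of the summed arms was 0.48 to 0.57 for 5p and 0.50 to 0.60 for 3p under 2 rescalings, with every entry counted and with each library left out. Quantile normalization and median centring were not run on the sums. For each of these, the cause was not tested. Depth limits miR-467b-3p, miR-467f and miR-467g, which had at most 55 reads in a library. Low levels also limit miR-669h-3p, miR-669d-3p and miR-669d-2-3p.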
